A study of Homo sapiens with 4 samples.

Results

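The 4 genes of the TCF/LEF family, TCF7, TCF7L1, TCF7L2 and LEF1, were examined in ATAC-seq peak lists of HCT116 cells that carried either an empty vector or FOXD2. ATAC-seq marks open chromatin through the cuts that the transposase Tn5 makes in accessible DNA, and HCT116 is an established human colorectal carcinoma line. The control cells held the lentiviral vector pSin without an insert. In the FOXD2 cells the same vector carried the complete FOXD2 coding sequence, which encodes a transcription factor of the forkhead family. Both were stable lines kept under puromycin, and each condition had 2 libraries, replicates 1 and 2. The labels name no separate cultures for them, and differences between replicates may thus be technical only. Open sites were taken from each gene and from 100 kb on each side of it (hg38). The 4 windows held 120 of the 122856 regions, a region being a stretch in which intervals of the 4 lists overlapped by at least 1 bp. The genes were chosen by earlier results of the same comparison, since TCF7L2 was known to have several sites in the control lists that were missing from the FOXD2 lists. Counts of such sites are therefore given as a description, without a test. With 2 libraries against 2, the smallest exact p is 0.333.

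TCF/LEF proteins bind DNA at the end of the canonical WNT pathway. Without a WNT signal they hold target genes with Groucho/TLE corepressors, and when β-catenin escapes degradation and enters the nucleus it joins them to activate those genes. In the intestinal crypt this circuit keeps stem and progenitor cells dividing, with TCF7L2 (TCF4) as its main DNA-binding partner of β-catenin, and most colorectal carcinomas have it switched on. HCT116 cells carry an activating mutation of CTNNB1, the gene of β-catenin, together with intact APC. TCF7L1 (TCF3) acts mostly as a repressor, LEF1 mostly as an activator, and TCF7 (TCF1) makes both long forms that bind β-catenin and short forms that lack that domain.

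A peak stood over the main promoter of TCF7L2 in all 4 libraries, with no loss in the FOXD2 cells. This gene (chromosome 10, 112950247 to 113167678, plus strand) had its 5′ peak at the 84.2 and 80.8 percentiles of the control lists and the 89.4 and 82.4 percentiles of the FOXD2 lists. A percentile here is the share of a library's own intervals with an equal or lower −log10 q, the peak caller's significance. TCF7L1 (chromosome 2, 85133392 to 85310387, plus strand) likewise had a peak over its 5′ end in every library, at percentiles 89.6 and 92.7 in the controls and 87.4 and 91.3 with FOXD2. The outer 5′ end of TCF7 (chromosome 5, 134108218 to 134148210, plus strand) had no interval within 1000 bp in any library. Its open promoter lay 7.395 kb further in, at a second start that the RefSeq promoter table lists. LEF1 (chromosome 4, 108047548 to 108168932, minus strand) had no interval within 1000 bp of its 5′ end. The nearest one was 1868 and 3687 bp away in control replicates 1 and 2. With FOXD2 it was 23227 and 33173 bp away in replicates 1 and 2. RefSeq lists a LEF1 start 2.631 kb inside the gene, and the interval of control replicate 1 lay 311 bp from that promoter window.

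Of the 7 promoter windows that RefSeq lists for the 4 genes, 5 are printed, each from 250 bases before to 50 bases after a start, to show which DNA these peaks did or did not cover. The other 2, at chr5:134123368-134123667 in TCF7 and chr10:113129021-113129320 in TCF7L2, had no peak in any library and no match to the motifs searched. They come from RefSeq (GRCh38.p14, the same build as hg38), are written 5′ to 3′ on the gene's strand, and carry in capitals any match to TGTTTA, a forkhead core, or its reverse complement.
TCF7L2 main promoter, chr10:112949997-112950296, plus strand: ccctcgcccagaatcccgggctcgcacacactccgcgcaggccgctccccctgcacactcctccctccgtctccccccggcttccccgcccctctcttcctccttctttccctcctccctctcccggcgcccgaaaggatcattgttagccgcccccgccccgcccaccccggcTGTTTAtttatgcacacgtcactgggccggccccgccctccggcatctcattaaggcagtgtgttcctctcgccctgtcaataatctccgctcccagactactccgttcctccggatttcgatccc
TCF7L2 inner promoter, chr10:113126383-113126682, plus strand: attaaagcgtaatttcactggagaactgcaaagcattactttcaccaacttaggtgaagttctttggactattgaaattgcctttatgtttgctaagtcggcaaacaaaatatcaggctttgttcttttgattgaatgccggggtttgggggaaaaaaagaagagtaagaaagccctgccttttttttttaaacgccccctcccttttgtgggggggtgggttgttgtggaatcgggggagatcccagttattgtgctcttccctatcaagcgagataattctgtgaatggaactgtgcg
TCF7 inner promoter, chr5:134115363-134115662, plus strand: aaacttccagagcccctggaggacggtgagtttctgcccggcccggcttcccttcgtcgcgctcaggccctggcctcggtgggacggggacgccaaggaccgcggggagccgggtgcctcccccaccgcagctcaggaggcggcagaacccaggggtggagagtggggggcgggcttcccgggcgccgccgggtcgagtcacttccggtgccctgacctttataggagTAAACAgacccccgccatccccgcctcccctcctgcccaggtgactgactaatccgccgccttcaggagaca
TCF7L1 promoter, chr2:85133142-85133441, plus strand: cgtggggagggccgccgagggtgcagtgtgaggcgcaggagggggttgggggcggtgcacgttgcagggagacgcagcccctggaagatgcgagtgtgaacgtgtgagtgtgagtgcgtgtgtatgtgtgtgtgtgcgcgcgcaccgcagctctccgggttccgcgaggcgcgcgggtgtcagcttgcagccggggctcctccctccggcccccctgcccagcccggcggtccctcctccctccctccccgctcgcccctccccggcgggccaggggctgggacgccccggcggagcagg
LEF1 promoter, chr4:108166252-108166551, minus strand: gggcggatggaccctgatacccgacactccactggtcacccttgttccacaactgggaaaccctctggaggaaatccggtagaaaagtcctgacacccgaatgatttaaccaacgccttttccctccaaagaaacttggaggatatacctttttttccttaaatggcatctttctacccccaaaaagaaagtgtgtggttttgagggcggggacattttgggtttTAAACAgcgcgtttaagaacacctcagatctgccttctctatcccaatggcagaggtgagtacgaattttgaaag

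The forkhead core was present in the main TCF7L2 window (from base 175 of 300), in the TCF7 window (from base 229) and in the LEF1 window (from base 226). It was absent from the TCF7L1 window and from the inner TCF7L2 window. The same search, on both strands, found it in 9.52% of 22132 promoter windows of protein-coding genes, and in 5.23% of the windows with a peak in all 4 libraries. The TCF/LEF core CTTTGA (10.98% of windows) and the AP-1 motif TGANTCA (6.15%) had no match in these 5 windows. In these windows no match of a motif overlapped another. A match is a stretch of letters, and the data hold no measure of factor binding at it.

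Over all genes, 56.7% of promoter windows had a peak in all 4 libraries and 33.1% had none in any. The main TCF7L2 and the TCF7L1 windows belonged to the former group and the LEF1 window and both unprinted windows to the latter. The TCF7 window overlapped a peak in control replicate 1 and in both FOXD2 libraries, and lay 109 bp from the nearest interval of control replicate 2. The inner TCF7L2 window, at a start 176 kb into the gene, overlapped a peak in both controls and in FOXD2 replicate 2, and lay 17 bp from the peak of FOXD2 replicate 1. GC content was 65.7% in the main TCF7L2 window, 69.7% in the TCF7 window and 74.3% in the TCF7L1 window. The inner TCF7L2 window had 42.7% and the LEF1 window 47.0%, both below the median of 62.3% over all promoter windows.

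The lists of the whole experiment differed in length, which bears on every count of missing sites. The control lists held 77752 and 72796 intervals in replicates 1 and 2. The FOXD2 lists held 82739 and 64675, so that of replicate 2 was the shortest. The number of reads is unknown, but the background recovered from the peak values was 1.68 and 1.71 tags in the controls and 1.84 in both FOXD2 libraries, a tag being an aligned read or fragment as the peak caller counts it. No called peak had fewer than 8 tags at its summit. A missing interval thus means that no site passed the caller's threshold there, not that the site was closed. Of 8 colorectal epithelial marker genes, 7 had a peak near a gene end in all 4 libraries. VIL1 was the exception, with a peak in control replicate 2 and FOXD2 replicate 2. Among markers of other cell types, COL1A1 and COL1A2 of 6 fibroblast genes and SPI1 of 6 leukocyte genes had one in all 4, and 0 of 6 endothelial genes did. No library had a peak at 4 of the fibroblast genes, 4 of the leukocyte genes, among them PTPRC (CD45), and 3 of the endothelial genes. CD3E of T cells had a peak in the controls only, and the endothelial gene CDH5 in the FOXD2 libraries only. KDR of endothelium had one in all libraries but control replicate 2, and TEK in FOXD2 replicate 1 only. The share of all genes with a peak near a gene end was not counted. Of promoter windows, 56.7% had a peak in all 4 libraries.

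TCF7L2 had 6 lost regions, present in both control lists and neither FOXD2 list, and 1 gained region, present in both FOXD2 lists and neither control list. Of its 42 regions, 14.3% were thus lost and 2.38% gained, beside 3.87% lost and 3.89% gained over all regions. Kept regions, found in all 4 libraries, numbered 12 (28.6%, beside 32.5% over all regions). Inside the gene 5 of 26 regions were lost, 0 gained and 7 kept, where of all regions overlapping protein-coding genes 3.7% were lost, 3.82% gained and 35.9% kept. At least 6 lost regions in such a window occurred at 26 of 19974 protein-coding genes (0.13%), and at least 5 lost inside the gene at 14 (0.0701%). These counts do not allow for the number of regions, which was 42 at TCF7L2 and 18 in the median window of all protein-coding genes. TCF7L2 was put forward because of its lost regions, so its standing among other genes describes how it was chosen.

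By library, the TCF7L2 window had 27 and 22 regions in the 2 controls, replicate 1 given before replicate 2 here and in what follows, and 28 and 19 with FOXD2. Inside the gene the numbers were 18 and 14 in the controls and 17 and 11 with FOXD2. The groups overlapped, since FOXD2 replicate 1 had the most regions in the window and FOXD2 replicate 2 the fewest. Covered length followed the same order, at 11.9 and 10.4 kb in the controls and 12.4 and 8.65 kb with FOXD2. FOXD2 replicate 1 alone held 10 regions found nowhere else, against 3, 2 and 2 in control replicate 1, control replicate 2 and FOXD2 replicate 2. The number of called sites in the window thus did not separate the conditions.

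**Figure D1:**
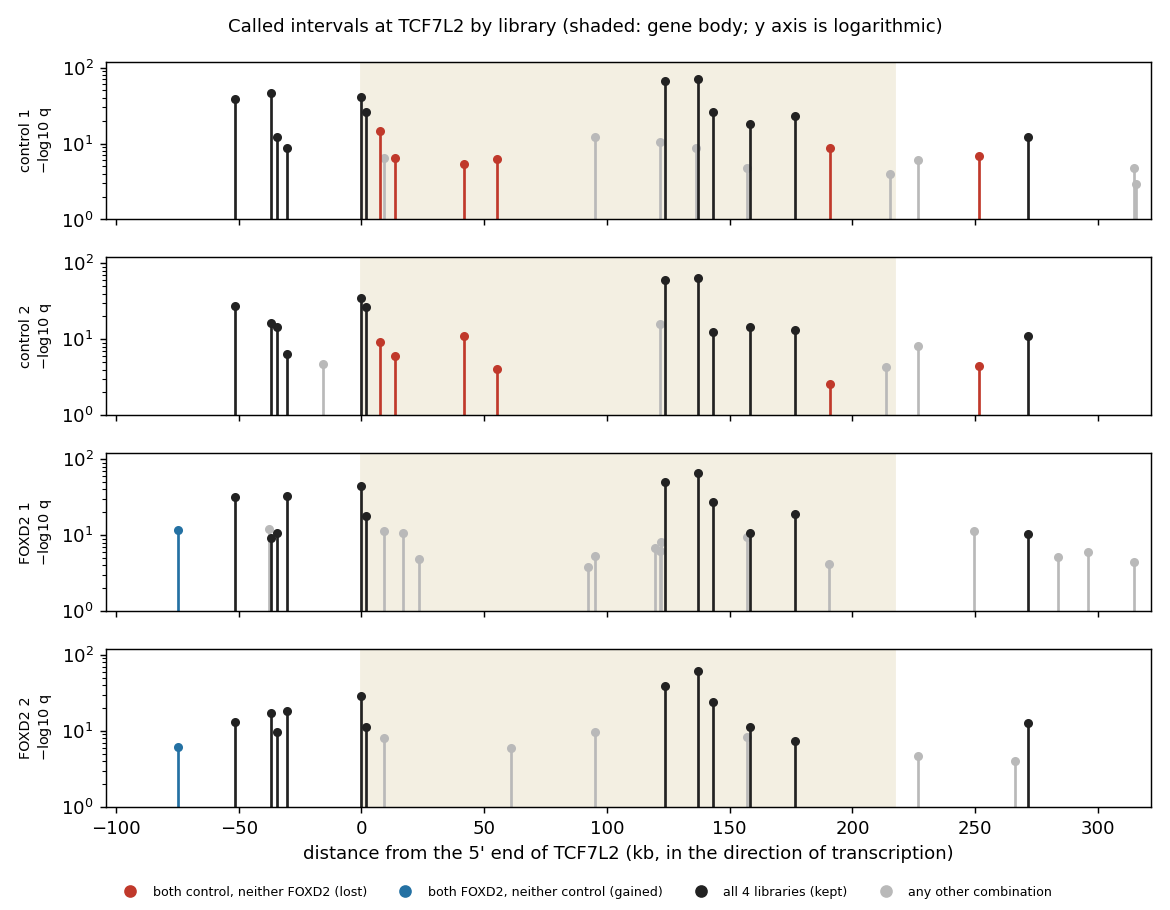
Peaks at TCF7L2 in each of the 4 libraries. The x axis is the distance from the 5′ end in kb along the direction of transcription, and the y axis the authors' −log10 q on a logarithmic scale. Each stem is a region with a called interval in that library, drawn at the region's midpoint with its highest −log10 q there. The shading is the gene body. The lost stems (red) occupy the 5′ part of the gene between 7.55 and 55.2 kb, where no kept stem (black) stands, and recur at 191 kb and past the 3′ end.

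The lost sites lay mostly in the 5′ part of TCF7L2 and the kept sites at its promoter and in its middle. Of the 8 regions in the stretch from the 5′ end to 54.4 kb, 3 were lost and 2 kept, the kept ones at the promoter and 1.81 kb from the 5′ end. From there to 109 kb 1 of 4 was lost and 0 kept. The stretch from 109 to 163 kb had 0 lost and 4 kept of 9, and the last, to 217 kb, had 1 lost and 1 kept of 5. The next kept region after these stood 120.6 kb on, and the gap (112952936 to 113073561) held 4 of the 6 lost regions and 9 others. The controls had 7 and 5 regions in that gap and the FOXD2 libraries 8 and 3. Exon positions are not given for these sites because the gene table used here has none.

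The lost site with the highest mean rank, at chr10:112957610-112957993 and 7.55 kb from the 5′ end, had a −log10 q of 14.5 and 9.35 in control replicates 1 and 2. Its summits held 49 and 41 tags over a local background of 11.04 and 11.3, and it stood at the 58.7 and 41.4 percentiles of the lists. Neither FOXD2 library had an interval there, the nearest being 1376 bp away in FOXD2 replicate 1. That neighbour, at 112959370 to 112959720, was called in control replicate 1 (−log10 q 6.365) and in FOXD2 replicates 1 and 2 (11.3 and 8.07). So 2 sites lay within a short stretch, of which one was missing from both FOXD2 lists and the other from that of control replicate 2.

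The other lost sites had lower values in control replicate 1, and that at 41.7 kb had a higher −log10 q in control replicate 2. At 13.7 kb (chr10:112963822-112964063) the −log10 q was 6.52 and 6.07 in the controls, with 25 and 26 tags over a local background of 6.10 and 6.88. At 41.7 kb (chr10:112991495-112992309) it was 5.45 and 10.96, with 22 and 33 tags and summits 546 bp apart. At 55.2 kb (chr10:113005313-113005636) the values were 6.20 and 4.02, with 20 and 18 tags. At 191 kb (chr10:113141062-113141476) they were 8.80 and 2.61, with 21 and 12 tags. That last value stood at the 0.124 percentile of control replicate 2, close to the weakest peak of the list. The lost site outside the gene lay 34.2 kb past its 3′ end (chr10:113201371-113202434), with values of 6.92 and 4.43 and 14 and 11 tags. All 6 lost sites were below the median rank of kept sites in the window, which was 74.0 and 59.0 in control replicates 1 and 2.

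In 3 of these 6 regions the control intervals overlapped by less than 50% of the shorter one. At 55.2 kb, 191 kb and past the 3′ end the control intervals overlapped by 84, 37 and 23 bp, which was 42.0, 18.5 and 10.95% of the shorter interval. At the first 3 lost sites they overlapped by 291, 215 and 457 bp, between 89.96 and 100% of the shorter. FOXD2 replicate 1 had an interval of its own 86 bp from the lost site at 191 kb (−log10 q 4.19) and another 1611 bp from the site past the 3′ end (−log10 q 11.2). Sites were also counted under 5 other definitions. These took only intervals with −log10 q of 5 or more, asked for 5 or more in both libraries with the site, shortened the lists to equal length, asked for an overlap of 50% of the shorter interval, or used 100 bp to each side of the summit. The sites at 7.55 and 13.7 kb stayed lost in 5 of 5 and the site at 41.7 kb in 4 of 5. The site past the 3′ end did so in 0 of 5, and those at 55.2 and 191 kb in 1 of 5 each. In lists shortened to equal length TCF7L2 had 3 lost and 2 gained regions. Among all regions 3926 were then lost and 4394 gained, in place of 4758 and 4777.

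**Figure D2:**
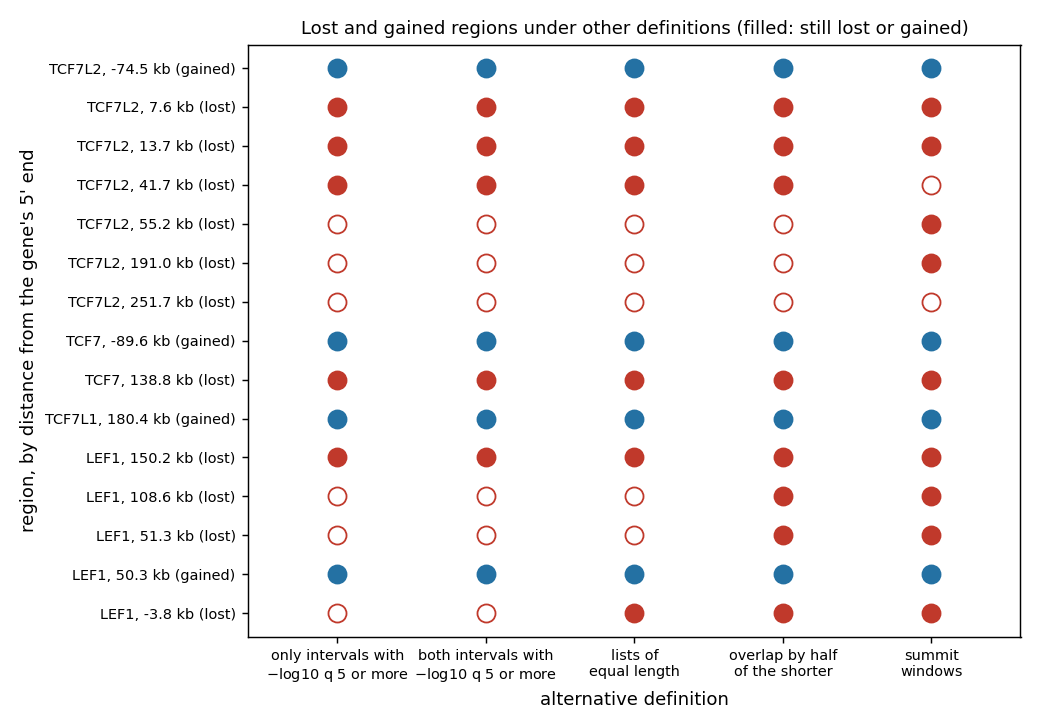
Fate of every lost (red) and gained (blue) region of the 4 genes under 5 other definitions. The x axis gives the definition, the y axis the region by its distance from the gene's 5′ end, and a filled circle means that the region kept its class. At TCF7L2 the lost regions at 7.55 and 13.7 kb stay filled in 5 of 5, the one past the 3′ end in 0 of 5, and the gained region in 5 of 5.

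The single gained region of TCF7L2 lay upstream at −74.5 kb (chr10:112875254-112876186), outside any gene of the table. Its −log10 q was 11.7 and 6.24 in FOXD2 replicates 1 and 2, with 23 and 16 tags. The control lists had no interval closer than 22289 bp. It kept its class under 5 of 5 other definitions. Without FOXD2 replicate 2 the window had 11 gained regions in place of 1, since a site of FOXD2 replicate 1 alone then counts as gained. Gained regions over the whole genome then numbered 22597 in place of 4777.

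Of the 12 kept regions of the TCF7L2 window, 4 lay upstream inside LINC02935, a long non-coding RNA gene, 7 in the gene and 1 downstream. The highest-ranked was at 137 kb (chr10:113086966-113087904), with −log10 q 71.6 and 64.8 in the controls and 64.9 and 60.8 with FOXD2. It stood at a mean percentile of 95.1, and its summit held 107 and 103 tags in the controls and 107 and 101 with FOXD2. The next, at 124 kb (chr10:113073561-113074196), had −log10 q 66.0 and 59.8 against 50.5 and 38.7. The third was the promoter peak (chr10:112949801-112950443), with 41.1 and 34.9 against 43.8 and 28.8. The fourth lay upstream at −51.4 kb (chr10:112898476-112899123), with 38.0 and 27.6 against 32.0 and 13.2. The fifth, at 143 kb (chr10:113093002-113094091), had 26.1 and 12.5 against 27.6 and 24.0. Of these 5 sites, only that at 124 kb had both FOXD2 values below both control values. In percentiles this was narrow, with 91.80 and 89.4 against 92.9 and 91.82. At 137 and 143 kb both FOXD2 percentiles were above both control percentiles. Values of −log10 q are not on a shared scale across lists. Their median over all kept regions was 25.9 and 24.7 in the controls and 22.8 and 17.7 with FOXD2.

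The kept regions of TCF7L2 had no common shift in rank. The median difference between FOXD2 and control percentiles was −4.04 points at TCF7L2, beside −0.955 over all 39933 kept regions, and on the log2 scale of fold enrichment it was −0.21 beside −0.16. Both FOXD2 percentiles were below both control percentiles at 4 of the 12 kept regions and above them at 3, where over all kept regions these shares were 20.5% and 15.8%. With the libraries compared by replicate number, the median difference at TCF7L2 was −0.975 points for replicates 1 and −0.385 for replicates 2. It turned to 1.54 points without FOXD2 replicate 2. The region with the largest shift was upstream, at −30.3 kb inside LINC02935 (chr10:112919648-112920271). Its −log10 q was 8.70 and 6.34 in the controls and 32.8 and 18.4 with FOXD2, with 23 and 23 against 64 and 44 tags. The groups did not overlap there, and the mean percentile was 44.8 points higher with FOXD2. So the strongest shift at a kept site of the window was upward, while 5 of the 6 lost sites were inside the gene. That region was picked out after its values were seen.

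**Figure D3:**
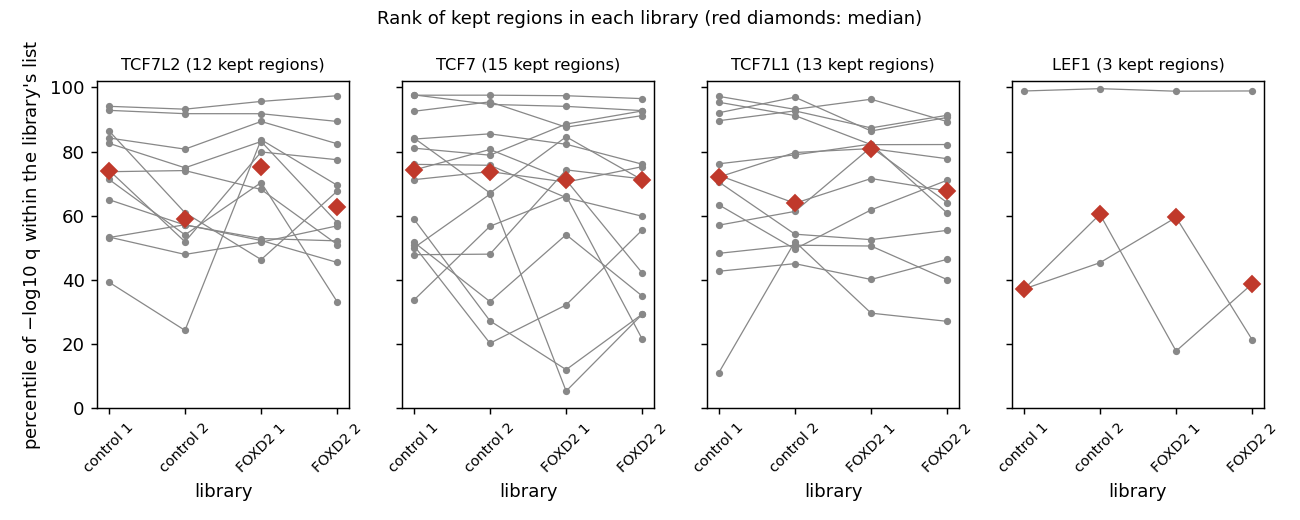
Percentile of −log10 q within each library's list for the kept regions of the 4 windows. The x axis gives the library, each line is 1 region, and red diamonds mark the median of the regions shown. At TCF7L2 the medians are 74.0, 59.0, 75.1 and 62.8 in the order of the libraries, and the libraries of a condition differ from each other as much as the conditions do.

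The relatives did not form a common pattern. LEF1 had 4 lost regions and 1 gained among 14 (28.6% and 7.14%), TCF7 had 1 of each among 27 (3.70% each) and TCF7L1 had 0 lost and 1 gained among 37 (2.70%). Together the 3 had 5 lost, 3 gained and 31 kept of 78 regions, and all 4 genes had 11 lost (9.17%), 4 gained (3.33%) and 43 kept (35.8%) of 120. Of 15713 genes with 10 or more regions in the window, 2.74% had a lost share at or above that of TCF7L2 and 0.0573% one at or above that of LEF1. The LEF1 share rests on few regions. Differences between the genes were not tested, because the lists that chose TCF7L2 also give the values of its relatives.

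**Figure D4:**
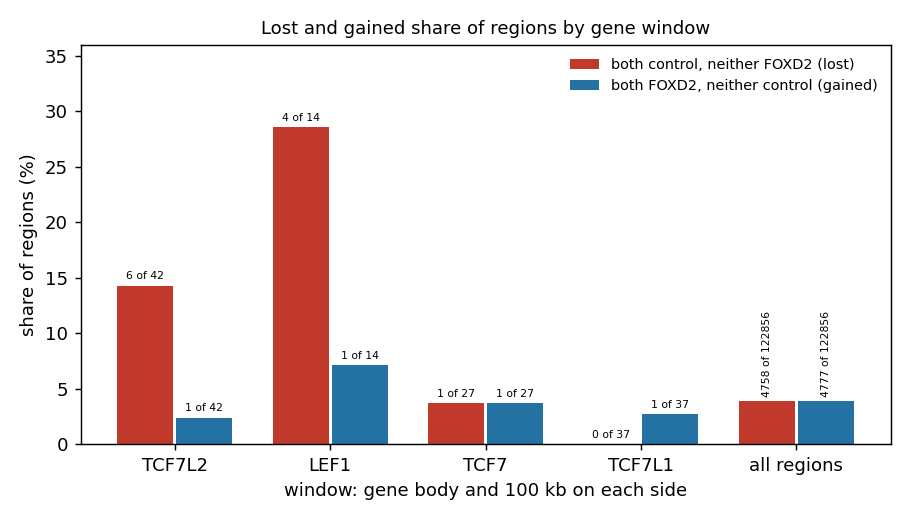
Lost and gained share of the regions in each gene's window, beside all regions. Bars give percent of regions on an axis from 0, and the numbers above them the regions counted. TCF7L2 and LEF1 have higher lost shares (14.3% and 28.6%) than all regions (3.87%), while TCF7 (3.70%) and TCF7L1 (0 of 37) do not.

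LEF1 had few called sites in any library, with lower counts in the FOXD2 lists. Its window had 10 and 8 regions in the controls and 7 and 5 with FOXD2. How many gene windows differ in this way was not counted. TCF7 went the other way, with 18 regions in each control list and 20 in each FOXD2 list. Inside LEF1 there were 5 and 4 regions in the controls against 3 and 3 with FOXD2. The covered length of the LEF1 window was 3.16 and 2.99 kb in the controls against 2.33 and 1.78 kb with FOXD2. The upstream lost site of LEF1 lay at −3.845 kb in LEF1-AS1, the antisense RNA gene (chr4:108172619-108172935), with −log10 q 8.85 and 4.88 in the controls. The promoter window of LEF1-AS1 had no peak in any library. Inside LEF1 the lost sites were at 51.3 kb (chr4:108117495-108117786), with 4.87 and 8.92, and at 109 kb (chr4:108060219-108060504), with 4.46 and 5.72. The downstream one lay in HADH, the gene of a mitochondrial fatty acid oxidation enzyme, 28.8 kb past the LEF1 3′ end (chr4:108018591-108018893), with 6.61 and 7.46.

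The gained region of LEF1 lay at 50.3 kb (chr4:108118475-108118829), only 688 bp from the lost site at 51.3 kb. Its −log10 q was 13.3 and 8.36 in FOXD2 replicates 1 and 2, with 22 and 16 tags, where the lost neighbour had 12 and 16 tags in the controls. Thus both conditions had a called interval in this part of the gene, at different positions. Whether the open position itself differed was not tested, since a missing interval does not mean a closed site. Under the 5 other definitions the lost site in HADH stayed lost in 5 of 5, the upstream site in 3 and the sites inside LEF1 in 2 each. With intervals of −log10 q 5 or more, LEF1 had 1 lost region in place of 4, where all lost regions numbered 4398 in place of 4758. The strongest of its 3 kept regions lay over the HADH promoter (chr4:107989514-107990363), at a mean percentile of 99.1. The kept site inside LEF1 was at 33.3 kb (chr4:108135460-108135824), with −log10 q 8.11 and 16.3 in the controls and 4.94 and 8.36 with FOXD2. The third, in HADH 17.1 kb past the LEF1 3′ end (chr4:108030243-108030686), had 8.13 and 10.3 against 13.3 and 5.91.

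Most regions in the TCF7 window were kept, many of them outside the gene. The window had 18 regions in each control list and 20 in each FOXD2 list. Of its 27 regions, 15 (55.6%) were in all 4 lists, beside 32.5% over all regions. Of these kept regions 5 lay upstream, 5 inside TCF7 and 5 downstream. The gained region lay at −89.6 kb inside VDAC1, a mitochondrial channel gene (chr5:134018375-134018924), and was the strongest gained site of the family. It had −log10 q 18.2 and 27.4 in FOXD2 replicates 1 and 2, at percentiles 69.2 and 81.1, with 30 and 42 tags. The lost region lay 98.9 kb past the 3′ end (chr5:134246911-134247211), with 6.92 and 6.01 in the controls and 21 and 22 tags. Both kept their class under 5 of 5 other definitions. The highest-ranked kept regions were over the promoters of its neighbours PPP2CA, a catalytic subunit of protein phosphatase PP2A (mean percentile 97.3), and SKP1, a subunit of SCF ubiquitin ligases (94.8). They were followed by a site in VDAC1 at −68.4 kb (91.7), the peak beside the inner TCF7 promoter (85.3) and a site 36.2 kb past the 3′ end (81.9).

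Inside TCF7 several kept sites ranked lower with FOXD2. At the 5 kept sites in the gene, 3 had both FOXD2 percentiles below both control percentiles and 1 had them above. Over all kept regions 20.5% were below in this way and 15.8% above. At 16.8 kb (chr5:134124353-134125620) the −log10 q was 11.1 and 20.4 in the controls and 3.53 and 6.997 with FOXD2, with 42 and 54 against 26 and 29 tags. The mean percentile there changed by −41.1 points with FOXD2. At 32.6 kb (chr5:134140520-134141193) the −log10 q was 26.1 and 34.8 against 19.5 and 9.13, and at 38.0 kb (chr5:134145853-134146485) it was 28.2 and 28.4 against 16.1 and 13.9. The peak beside the inner promoter (chr5:134114232-134114910), which also overlaps VDAC1, went the other way, with 35.4 and 32.3 against 42.0 and 45.4. The kept site that overlaps the inner promoter window (chr5:134115052-134115806) had percentiles of 59.0 and 27.2 in the controls and 11.95 and 29.3 with FOXD2, so the groups overlapped there. Over the whole TCF7 window 7 of 15 kept regions ranked lower in both FOXD2 libraries and 2 higher, with a median difference of −1.34 points. The sites inside TCF7 were singled out after their values were seen.

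TCF7L1 had no lost region. Its window had 23 and 22 regions in the controls and 23 and 18 with FOXD2. Of its 37 regions, 13 (35.1%) were in all 4 libraries, beside 32.5% over all regions. The gained region lay 3.38 kb past the 3′ end (chr2:85313640-85313903), with −log10 q 7.95 and 5.48 and 24 and 20 tags in FOXD2 replicates 1 and 2. It kept its class under 5 of 5 other definitions. The kept regions with the highest mean percentiles were over the shared promoter of RETSAT and ELMOD3 (94.0), over that of TGOLN2, which encodes a trans-Golgi membrane protein (91.5), and over the promoter of TCF7L1 (90.2). The site at 152 kb inside the gene (87.7) and an upstream site at −79.4 kb in KCMF1 (77.6) came next. The site at 152 kb (chr2:85285368-85285826) had −log10 q 78.0 and 57.8 in the controls and 30.6 and 28.5 with FOXD2. Within the lists it stood at the 95.4 and 91.2 percentiles in the controls and at 82.2 in both FOXD2 libraries. Over the window 2 of 13 kept regions ranked lower in both FOXD2 libraries and 1 higher, with a median difference of −2.37 points. Over all kept regions 20.5% ranked lower in this way and 15.8% higher.

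**Figure D5:**
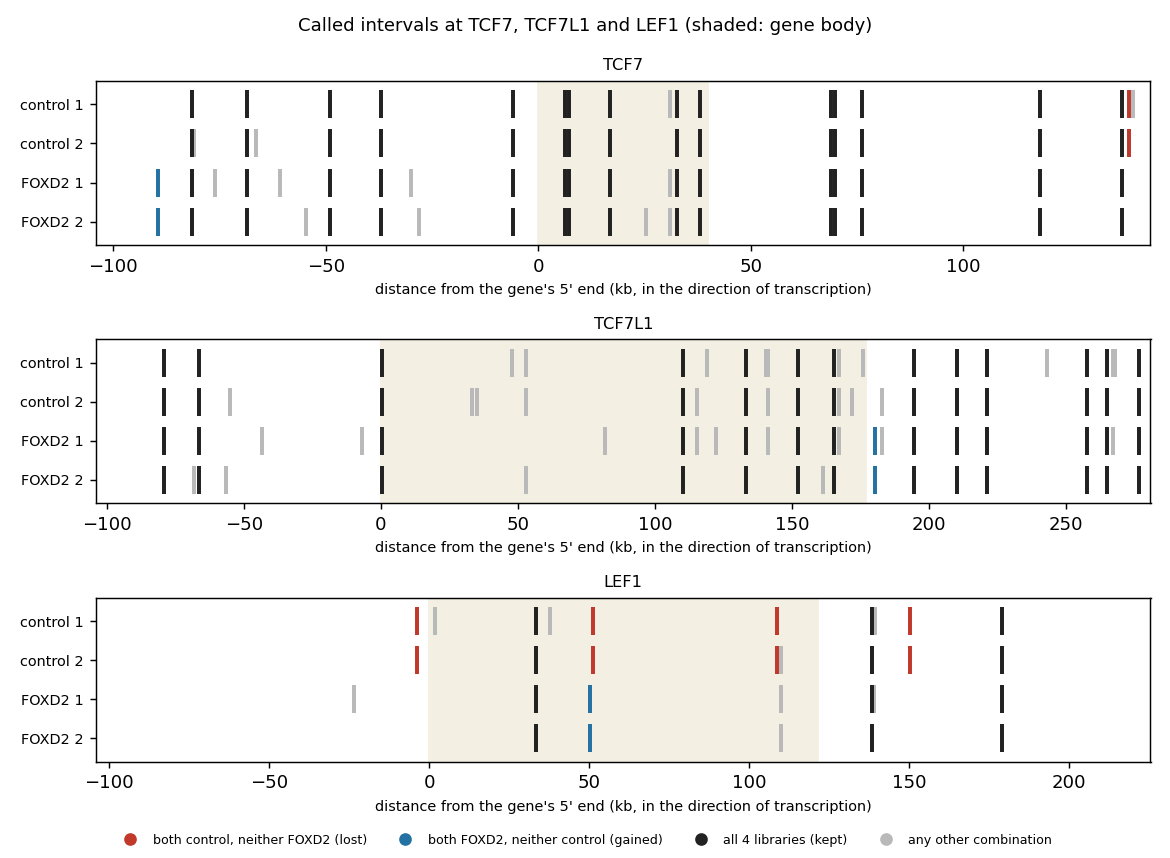
Called intervals at TCF7, TCF7L1 and LEF1 by library. The x axis of each panel is the distance from the gene's 5′ end in kb along the direction of transcription, and each row is a library. Each mark is a region with a called interval in that library, drawn at the region's midpoint, and the shading is the gene body. Kept marks (black) dominate at TCF7 (15 of 27 regions), while LEF1 has 14 regions in all and 4 lost ones (red).

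The limit of 100 kb left some sites just out of the windows. At TCF7L2 a region that was neither lost, gained nor kept lay 0.691 kb beyond the lower edge and another 1.82 kb within the upper edge. TCF7 had regions 0.129 kb within its upper edge and 2.46 kb beyond its lower edge, and its lost region lay close to the upper edge. A kept region crossed the upper edge of TCF7L1. The first region beyond the lower edge of TCF7L1, 14.0 kb out, was a gained one. At LEF1 the nearest regions outside were 15.3 and 19.1 kb away.

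Other genes of the WNT pathway stood close to the background. Across 99 listed genes, 75 of 1999 regions were lost (3.75%) and 71 gained (3.55%), beside 3.87% and 3.89% over all regions. The share of kept regions was 38.1%, beside 32.5% over all regions. No listed gene had more than 4 lost regions. Of 85 listed genes with 10 or more regions, only CHD8, a chromatin remodeller that binds β-catenin, had a lost share as high as that of TCF7L2, with 2 of 14.

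Among ligands and their R-spondin enhancers, 17 of 376 regions were lost and 14 gained. WNT11 had 3 lost and 1 gained. WNT5B and WNT16 had 2 lost and 0 gained, as did RSPO3, where this was 2 of 8 regions. WNT7B and WNT9B had 2 lost and 1 gained, WNT3 had 2 of each, and both of its lost regions also lie in the window of its neighbour WNT9B. WNT2, WNT8A and RSPO4 had 0 lost and 2 gained. At the receptors and the ligases that remove them 9 of 308 were lost and 15 gained. RNF43 and ZNRF3, membrane ubiquitin ligases that clear Frizzled receptors and are themselves WNT targets, had 1 lost and 4 gained, and 1 lost and 3 gained. LGR6, an R-spondin receptor, had 1 and 2. The coreceptor LRP5 had 3 lost and 1 gained, all inside the gene. Of the gained regions, 2 lay inside RNF43, 2 inside ZNRF3 and 2 inside LGR6. Secreted inhibitors had 6 lost and 3 gained of 157, with 2 and 0 at DKK4 and 2 and 1 at NOTUM, an enzyme that inactivates WNT ligands.

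The destruction complex, which marks β-catenin for degradation, had 13 of 425 regions lost and 11 gained. APC2 had 4 lost and 0 gained, and AXIN2, a scaffold of the complex and a WNT target, had 0 lost and 3 gained, with 0 of these inside either gene. The signal transducers DVL1 and DVL3 had 2 and 1, and 2 and 2, and NKD2 had 1 and 2. Nuclear cofactors of TCF/LEF had 21 of 480 lost and 15 gained. TNIK, a kinase that binds TCF7L2, had 4 lost, of which 1 lay inside, and 0 gained. CTNNB1 had 0 lost and 2 gained, both outside the gene. SMARCA4, a chromatin remodeller, had 3 of each. The corepressor TLE3 had 0 and 2, CTBP1 1 and 2, CTBP2 2 and 1, and the β-catenin inhibitor CTNNBIP1 2 and 1. Intestinal WNT targets had 9 of 253 lost and 13 gained, with 1 and 4 at TNFRSF19, 0 and 2 at the receptor gene EPHB2, 2 and 0 at the stem cell factor ASCL2, and 2 and 1 each at CCND1 and CD44. Across the 6 groups 2.92 to 4.52% of regions were lost and 1.91 to 5.14% gained, beside 3.87% and 3.89% over all regions. The share of all genes with 2 or more lost or gained regions was not counted. The pathway genes named by such counts are thus a description only.

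The genes whose regions were spread over the 4 libraries most like those of TCF7L2 were ARHGEF3, MGLL, PFKFB3, CDH23 and TNRC18. The measure was the Euclidean distance between the shares of a gene's inner regions that each library held, over 4 libraries and 530 protein-coding genes with a similar number of regions inside. TCF7L2 had shares of 69.2% and 53.8% in the controls and 65.4% and 42.3% with FOXD2. ARHGEF3, the nearest at a distance of 0.0405, had 65.5%, 55.2%, 65.5% and 41.4%. It had 3 lost regions inside and the other 4 genes had 1 each, where TCF7L2 had 5. The 5 genes were chosen by these same shares, so their low share in FOXD2 replicate 2 follows from the choice. That library had the shortest list, and the part of list length in these shares was not tested.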

How the data were processed

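Each library had 1 list of peaks (narrowPeak, hg38), and none was pooled. The submitters' processing notes name MACS2 2.2.7.1, Bowtie2 2.3.4.1, cutadapt 3.4, bedtools and Picard. Their roles, order and settings, and any shift of read ends for Tn5, were not given in the sources used here. Each deposited interval carries the authors' fold enrichment at its summit (a ratio to local background), the deposited −log10 p and −log10 q, a deposited score and the authors' summit offset. The authors' score was not used. These values rank or describe peaks within a list. They are not read counts.

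Intervals on chromosomes 1 to 22 and X that overlapped by at least 1 bp across the lists were merged into regions. Fold and −log10 p together fix a summit's pileup and local background under the caller's Poisson model. For 100% of peaks with −log10 p below 120 the recovered values gave back the deposited one to within 0.002. Gene ends came from a RefSeq table (GRCh38.p14), and strands and promoter sequences from RefSeq promoter windows. Of the 99 listed pathway genes 99 were matched. All 4 genes were named with each lost and gained region and up to 5 kept regions by mean percentile, chosen after the values where the report says so. Pathway genes were named with at least 2 lost or 2 gained regions, and genes like TCF7L2 if within a factor of 1.5 in regions inside, the nearest 5 in library shares.

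The members and lists were chosen with earlier results of these data known. Alternatives varied the q threshold, overlap, list length, window and libraries. A marker was open where a peak lay within 1000 bp of a gene's 5′ end, or of either end where the strand was not known. Python 3.11.15, pandas 2.3.3, numpy 2.4.6 and scipy 1.17.1 were used, and the merging and counting were tested on simulated lists.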

Additional observations from a re-analysis of the deposited data

How the results depend on the processing

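The lists show only sites that the caller passed, none under 8 tags, so weaker sites were not detectable. With intervals of −log10 q 5 or more, TCF7L2 had 4 lost and 2 gained regions, its relatives 2 lost and 3 gained, and the other WNT genes 46 gained. With −log10 q of 5 or more in both libraries, TCF7L2 had 3 lost, its relatives 2 lost and the WNT genes 44 gained. TCF7L2 had 2 gained with summit windows, 3 lost and 2 gained with an overlap of 50% of the shorter interval, and 3 and 2 in lists of equal length, where its relatives had 3 lost. Among all regions, 4758 were lost and 4777 gained as reported. With −log10 q of 5 or more these were 4398 and 3749, and with 5 or more in both libraries 3206 and 3196. With summit windows they were 5633 and 5457, with the 50% overlap 4656 and 4690, and in lists of equal length 3926 and 4394. In gene bodies alone TCF7L2 had 0 gained, its relatives 2 lost and 1 gained, and the WNT genes 19 lost and 19 gained. With 50 kb on each side TCF7L2 had 0 gained and the WNT genes 43 lost, as fewer regions were counted. Leaving out 1 library relaxes the definition. Lost regions were then 7 to 9 at TCF7L2, 6 to 17 at its relatives and 105 to 315 at the WNT genes, and gained ones 1 to 11, 4 to 12 and 96 to 339. Over all regions lost ones then numbered 6868 to 19198 and gained ones 6986 to 22597. The lowest and highest median shift of kept regions without 1 library were −4.49 and 1.54 points at TCF7L2, and −4.41 and −1.78 at its relatives. The settings for the WNT genes were chosen after seeing the data. In all, 45 values were counted as alike and 33 as moved. A count was alike within 1.5 times the reported one, and a median percentile shift within the spread between libraries. Medians of log2 fold enrichment were counted as alike because their sign agreed. The turn of sign at TCF7L2 was within that spread. No paired analysis was possible because the results come from no test. Matched by replicate number, the median shift of kept regions at TCF7L2 was −0.975 and −0.385 points, a comparison added after seeing the data.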
